A study of Mus musculus with 8 samples.

Results

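The nuclear-encoded subunits of complexes III, IV and V of the mitochondrial inner membrane were examined in the spermatocytes of mice with and without MFN2. The members are the protein-coding genes of the deposited table whose names begin with Uqcr, with Cox followed by a number from 4 to 8 and a letter, or with Atp5. This rule found 44 of 54532 listed genes, of which 8 belong to complex III, 18 to complex IV and 18 to complex V. They were divided by textbook knowledge into 37 subunits used in most tissues, 3 testis isoforms of complex IV (Cox6b2, Cox7b2 and Cox8c) and 4 isoforms of complex IV of other tissues (Cox4i2, Cox6a2, Cox7a1 and Cox8b). In all, 42 members had an FPKM (sequenced fragments on a gene, divided by its length and scaled between libraries) above 1 in at least 1 library and entered the tests. Cox8b did not pass this filter, nor did a second gene with the name Atp5o (ENSMUSG00000116933), which was listed at 0 in all 8 libraries.

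The spermatocytes came from C57BL/6J mice and gave 8 libraries, 1 for each combination of stage, genotype and age. The stages were pachytene (P) and leptotene/zygotene (L/Z), and the ages were PD 24 and PD 52. MFN2 WT mice carried Mfn2 loxp/loxp and MFN2 cKO mice carried Mfn2 loxp/loxp; Stra8-Cre, so both groups had the floxed allele. Cre under the Stra8 promoter acts in male germ cells, and it removes exon 6 of Mfn2, the gene of a mitochondrial outer membrane fusion protein. By the study's methods the controls were littermates that could also carry a single floxed allele, and cells were separated by size in a BSA gradient. The number of mice behind each library is not given in the sources used here. With 1 library per group, differences between genotypes in a single pair could not be checked against replicates.

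Complex III passes electrons from ubiquinol to cytochrome c, complex IV passes them from cytochrome c to oxygen, and both pump protons out of the matrix. Complex V, the ATP synthase, lets the protons back through a rotor in the membrane and uses this flow to make ATP. Nearly all subunits of these complexes are encoded in the nucleus, and a few core subunits are encoded in mitochondrial DNA. Several small subunits of complex IV come as isoforms of different genes, and germ cells of the testis use versions of their own.

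The coding sequences of the testis isoforms are given beside those of their somatic counterparts, because the isoforms can be compared within each library. They were read from GENCODE mouse release 21 transcripts on GRCm38, whose coordinates were identical to those of the deposited table for 42 of the 44 members. Each is given from the start codon to the last codon before the stop, and capitals mark runs of at least 6 bases that are identical in the alignment of a pair.
Cox8c: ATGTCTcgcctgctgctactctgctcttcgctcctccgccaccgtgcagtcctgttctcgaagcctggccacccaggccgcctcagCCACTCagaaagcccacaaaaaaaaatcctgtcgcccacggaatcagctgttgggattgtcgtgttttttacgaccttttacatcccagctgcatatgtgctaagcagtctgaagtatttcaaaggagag
Cox8a: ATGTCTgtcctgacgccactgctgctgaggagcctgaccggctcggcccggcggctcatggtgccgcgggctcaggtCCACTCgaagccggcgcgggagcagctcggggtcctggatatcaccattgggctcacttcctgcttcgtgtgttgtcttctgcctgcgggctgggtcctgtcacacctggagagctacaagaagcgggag
Cox6b2: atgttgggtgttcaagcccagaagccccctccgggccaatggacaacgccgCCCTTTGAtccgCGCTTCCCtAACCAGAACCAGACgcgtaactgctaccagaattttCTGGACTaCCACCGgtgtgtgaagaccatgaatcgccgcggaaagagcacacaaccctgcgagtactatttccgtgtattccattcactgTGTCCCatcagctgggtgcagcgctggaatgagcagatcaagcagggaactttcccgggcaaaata
Cox6b1: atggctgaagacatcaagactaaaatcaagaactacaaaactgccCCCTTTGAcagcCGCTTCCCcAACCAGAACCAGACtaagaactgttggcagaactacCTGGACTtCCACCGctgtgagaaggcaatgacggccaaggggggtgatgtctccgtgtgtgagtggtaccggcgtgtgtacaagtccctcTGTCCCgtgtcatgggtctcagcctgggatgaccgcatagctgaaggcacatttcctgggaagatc
Cox7b2: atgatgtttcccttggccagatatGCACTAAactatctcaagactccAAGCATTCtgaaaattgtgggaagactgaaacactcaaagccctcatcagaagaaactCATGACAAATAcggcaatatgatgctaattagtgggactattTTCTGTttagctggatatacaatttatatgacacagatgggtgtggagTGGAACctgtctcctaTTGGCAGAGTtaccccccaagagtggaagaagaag
Cox7b: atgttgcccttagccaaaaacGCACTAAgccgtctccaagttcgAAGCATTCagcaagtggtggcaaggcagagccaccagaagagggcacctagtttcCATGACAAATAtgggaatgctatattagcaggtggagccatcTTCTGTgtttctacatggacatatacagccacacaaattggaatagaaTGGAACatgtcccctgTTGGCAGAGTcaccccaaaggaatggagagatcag
The gene Cox8c lies on the forward strand at chr12:102899316-102900526 and Cox8a on the reverse strand at chr19:7215158-7217616. Their coding sequences of 72 and 69 codons were identical at 58.9% of 197 aligned bases, and no identical run was longer than 6 bases. Both genes of the Cox6b pair lie on the reverse strand of chromosome 7, Cox6b2 at chr7:4751792-4753094 and Cox6b1 at chr7:30616861-30626151. These had 88 and 86 codons with 64.2% identity over 254 bases. Cox7b2 lies on the reverse strand at chr5:71442824-71548205 and Cox7b on the forward strand at chrX:106015700-106022450. Their sequences of 82 and 80 codons were identical at 65.4% of 240 bases. No window of 150 bases, the read length, was shared between any of these 6 genes and another annotated gene, so reads of the isoforms could be told apart.

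Reads on genes numbered 14340665 to 20379950 per library. The targeted gene Mfn2 was lower in each MFN2 cKO library than in its MFN2 WT partner, with an FPKM of 77.1 against 39.6 and 62.2 against 50.1 in P, and 82.2 against 34.3 and 97.5 against 47.9 in L/Z. The stage labels were checked against 8 genes of L/Z and 8 of P spermatocytes. The summed FPKM of the L/Z genes was 112 to 165 in the P libraries and 54.5 to 161 in the libraries labelled L/Z. It was higher in L/Z only in MFN2 cKO at PD 24 (161 against 156 in P). Single genes of this list differed. Dmc1 (5.20 to 17.2 in L/Z, 3.59 to 7.68 in P) and Prdm9 (0.905 to 4.80 and 0.864 to 2.21) were higher in L/Z in every pair. Sycp3 (26.5 to 63.3 and 56.1 to 69.5) was lower in L/Z in every pair. Stra8 was higher in L/Z at PD 24 and lower at PD 52. The P genes summed to 3915 to 5708 in the P libraries and to 3291 to 5614 in those labelled L/Z. All 10 spermatid genes were detected in every library, and their sum was 97.3 to 4586 in P and 355 to 18949 in L/Z, where it was highest in MFN2 cKO at PD 52. Markers of somatic cells also varied, with none listed at 0: the 6 Leydig genes summed to 18.2 to 585, the 7 Sertoli genes to 20.6 to 663, the 6 macrophage genes to 4.34 to 126 and the 5 peritubular myoid genes to 5.11 to 160. The 7 spermatogonial genes summed to 36.8 to 142. The part of these cell types in the differences below was not tested. In such bulk libraries, fewer cells of a type and less RNA per cell cannot be told apart.

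Among the 8 libraries, P MFN2 WT at PD 52 stood apart for these genes. There 30 of the 42 members tested had their highest FPKM, while 10.6% of all 21175 genes tested did. Summed over all members the FPKM was 5715 in this library and 2583 to 3746 in the other 7. Each complex showed this, with 1044 against 437 to 579 for complex III, 3489 against 1483 to 2277 for complex IV and 1183 against 646 to 891 for complex V. Measured on log2(FPKM + 1) from the mean of the 8 libraries, the median member was 0.62 higher in P MFN2 WT at PD 52 and -0.28 to 0.21 in the others. In this library the median was also 0.82 higher for the nuclear subunits of complex I and 0.82 for the cytosolic ribosomal proteins. The rise was thus not particular to the members. The library next in order was L/Z MFN2 cKO at PD 24, where 7 members were highest, a share close to the 17% of all genes, and none was lowest (10.1% of all genes). Its partner, L/Z MFN2 WT at PD 24, held the lowest value of 15 of the 42 members (8.88% of all genes).

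**Figure D1:**
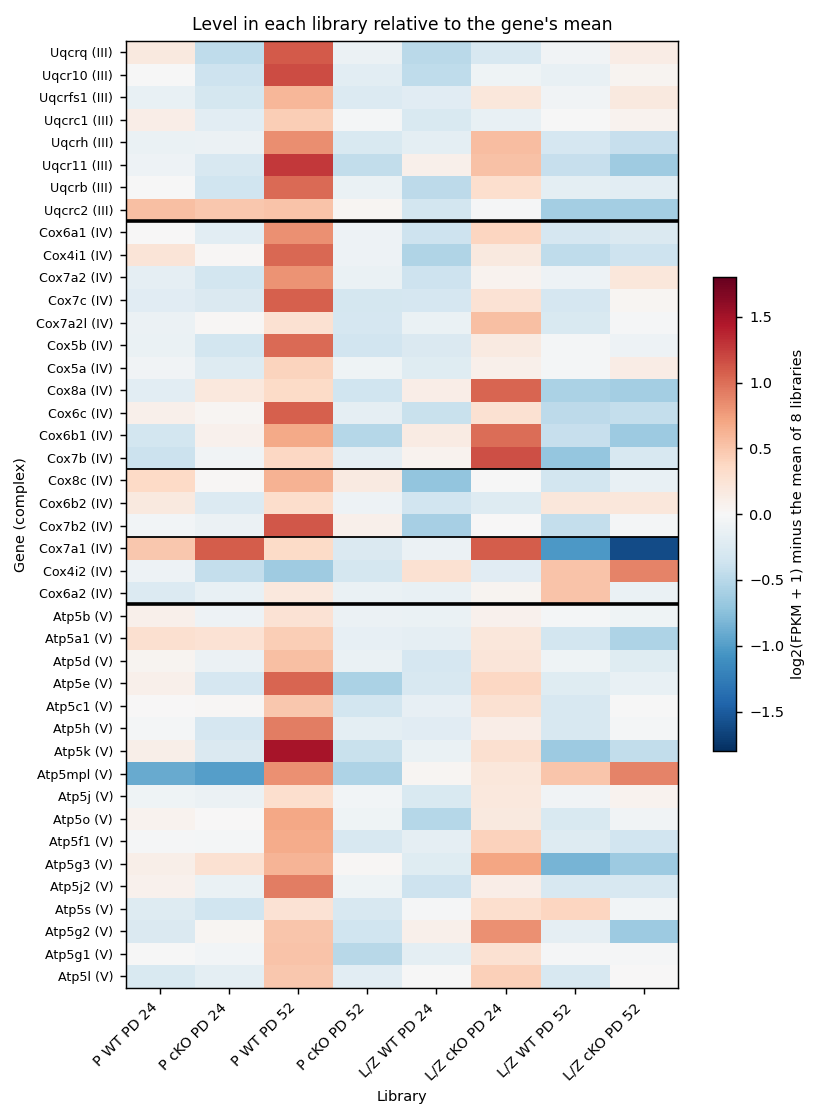
Level of the 42 members tested in each library, as log2(FPKM + 1) minus the mean of the gene over 8 libraries (colour scale), with libraries as columns and genes as rows. Thick lines part the complexes and thin lines part the ubiquitous, testis and other-tissue isoforms of complex IV, and 30 of the genes are highest in the column of P WT PD 52.

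The genotype comparison asks whether loss of MFN2 went with other levels of the subunits. In P spermatocytes at PD 24 the 41 members above the filter lay close to all genes, with a median log2 change (MFN2 cKO minus MFN2 WT) of -0.12 against -0.10 for 16749 genes. Of these, 31 were lower and 10 higher in MFN2 cKO (62.1% and 37.9% of all genes). None changed at least 2-fold, where 6.29% of all genes were at least 2-fold lower and 1.79% higher. In this pair the FPKM of the spermatid genes summed to 1173 and 97.3 (MFN2 WT, then MFN2 cKO). The Sertoli genes summed to 537 and 663, the Leydig genes to 18.2 and 110 and the macrophage genes to 15.6 and 34.2. At PD 52 the median of the members in P was -0.86 against -0.05 for 17444 genes. Here 40 of 41 members were lower in MFN2 cKO (54.4% of all genes were), and 16 were at least 2-fold lower (5.78% of all genes). The remaining member, Cox4i2, was higher (45.6% of all genes), and no member was at least 2-fold higher (5.21% of all genes). With a further scaling of the libraries 13 instead of 16 were at least 2-fold lower, since Cox7b2 went from -1.03 to -0.93, Atp5h from -1.10 to -0.997 and Atp5g1 from -1.01 to -0.92. Cell type markers changed in the same pair, where the FPKM of the spermatid genes summed to 4586 and 2030 (MFN2 WT, then MFN2 cKO), that of the Sertoli genes to 520 and 271, that of the Leydig genes to 239 and 585 and that of the macrophage genes to 4.34 and 18.4.

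In L/Z at PD 24 the members were higher in MFN2 cKO, with a median of 0.48 against 0.08 for 17664 genes. Of the 41 members, 40 were above 0 (57% of all genes), and 2 of them, Cox7b and Cox7a1, were at least 2-fold higher (3.45% of all genes). The remaining member, again Cox4i2, was below 0 (43% of all genes), and no member was at least 2-fold lower (7.03% of all genes). In this pair the Leydig genes summed to 31.4 and 161, the macrophage genes to 29.0 and 89.2 and the spermatid genes to 2329 and 355, in the same order. At PD 52 the members differed little between the L/Z libraries, with a median of 0.08 against 0.02 for 17860 genes. There 26 members were above 0 and 15 below (53% and 47% of all genes), and none changed 2-fold (4.83% of all genes were at least 2-fold higher and 3.12% lower). The markers did change in this pair, with sums of 10200 and 18949 for the spermatid genes and 15.1 and 126 for the macrophage genes. The Leydig genes summed to 26.3 and 88.7 and the Sertoli genes to 20.6 and 60.3. By sign alone, 20 of 42 members were higher in MFN2 cKO at both ages in L/Z and lower at both ages in P, as 8.17% of all genes were. Some of these differences were small, such as that of Cox6b2 in L/Z at PD 52 (FPKM of 242 and 243). A genotype by stage interaction, fitted with limma after the data were seen, called none of the members (0% of all genes), and 8 of the 42 had an unadjusted p under 0.05 (4.03% of all genes). The smallest adjusted p of a member was 0.979 with Benjamini-Hochberg adjustment.

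**Figure D2:**
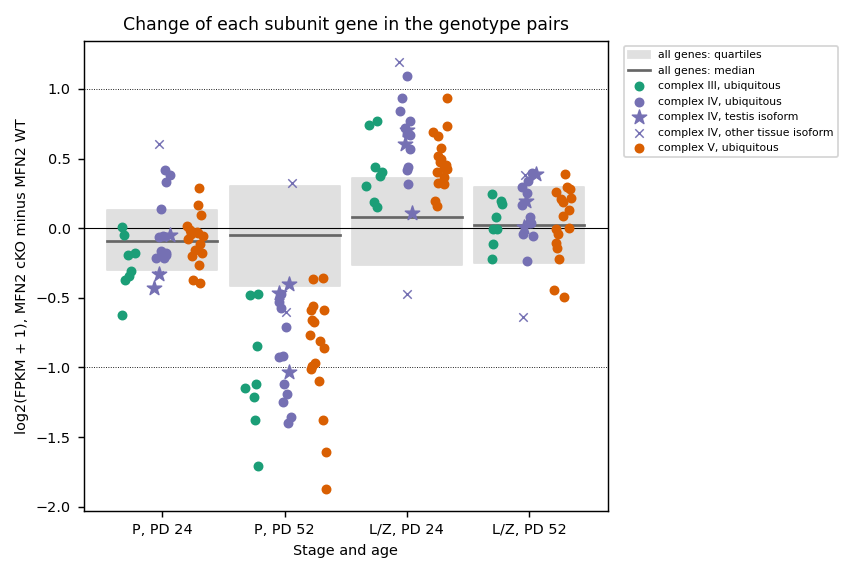
Change of each member between MFN2 WT and MFN2 cKO on the log2(FPKM + 1) scale (vertical axis) in the 4 pairs of stage and age (horizontal axis), 1 library per genotype, coloured by complex. Grey boxes and lines give the quartiles and median of all genes, dotted lines mark a 2-fold change, and 40 of 41 members lie below 0 in P at PD 52 and above 0 in L/Z at PD 24.

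In complex III, the 8 subunits had mean FPKM between 32.2 (Uqcrc2) and 119 (Uqcrq). Uqcrq (ENSMUSG00000044894, chr11:53427922-53430831, reverse strand), a small subunit of the membrane region, had the highest mean of the complex. In P its FPKM was 126 and 81.5 (MFN2 WT, then MFN2 cKO, here and in the pairs of values that follow) at PD 24, and 241 and 103 at PD 52. In L/Z it was 79.8 and 90.8 at the younger age, and 107 and 122 at the older. P MFN2 WT at PD 52 was above the other 7 libraries, which overlapped between genotypes. The log2 change of Uqcrq was -0.62 (95% counting interval -0.69 to -0.55) in P at PD 24 and -1.21 (-1.28 to -1.15) at PD 52, and 0.18 (0.11 to 0.26) and 0.19 (0.12 to 0.27) in L/Z. Such intervals come from the reads of both libraries by the exact binomial (Clopper-Pearson) method and cover counting error only.

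Uqcrc2 (ENSMUSG00000030884, chr7:120635176-120659524, forward strand) encodes a core protein of the matrix side of complex III. Its FPKM in P was 45.04 and 43.4 at PD 24 and 44.1 and 31.6 at PD 52, and in L/Z 24.2 and 30.1 at the younger age and 19.8 and 19.7 at the older. Every P library was above every L/Z library. Between genotypes the log2 change of Uqcrc2 was -0.05 (-0.14 to 0.03) and -0.47 (-0.57 to -0.37) in P at the younger and older age, and 0.30 (0.19 to 0.41) and -0.01 (-0.15 to 0.14) in L/Z. The gene overlaps Pdzd9 on the other strand, 13.6% of its windows of 150 bases lie in that gene too, and the library kit does not mark strand. Reads of the overlap could not be assigned, so the values of Uqcrc2 are uncertain. The share of windows does not give the size of this error, which also depends on the level of Pdzd9. Pdzd9 had an FPKM of 54.0 to 87.1 in P and of 63.1 to 102 in L/Z, above that of Uqcrc2 in every library.

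Except for Uqcrc2, all subunits of complex III were highest in P MFN2 WT at PD 52. In P at PD 52 all 8 were lower in MFN2 cKO (median -1.13), and 5 of them by at least 2-fold. The largest difference was in Uqcr11, a small subunit, with FPKM of 109 and 32.6 and a log2 change of -1.71 (-1.89 to -1.53). Uqcr10 (242 and 92.7), the ubiquinone-binding Uqcrb (90.1 and 40.0) and the hinge protein Uqcrh (98.5 and 44.8) changed by -1.38, -1.15 and -1.12. The Rieske iron-sulfur protein Uqcrfs1 (119 and 65.5) and the core protein Uqcrc1 (101 and 71.9) differed by less than 2-fold. In L/Z at PD 24 the 8 genes were higher in MFN2 cKO by a median of 0.39, and none reached 2-fold.

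Among the 11 ubiquitous genes of complex IV, mean FPKM ran from 4.87 (Cox7b) to 206 (Cox6a1, a membrane subunit). In P MFN2 WT at PD 52, 5 of the 11 were at least 2-fold above P MFN2 cKO, and all 11 were higher, with a median change of -0.93. Cox7c, a small membrane subunit, had 246 and 93.0 (-1.40, interval -1.48 to -1.31), and Cox5b, on the matrix side, had 101 and 38.8 (-1.36). Cox6c (81.6 and 33.8) changed by -1.25, Cox6b1 (46.1 and 19.7) by -1.19 and Cox4i1 (365 and 167), the subunit through which ATP regulates the enzyme, by -1.12. In L/Z at PD 24 all 11 were higher in MFN2 cKO, with a median change of 0.67. Cox7b differed most, with 4.71 on 108 reads and 11.2 on 241 reads and a log2 change of 1.09 (0.81 to 1.38). Cox7a2l, a protein linked to supercomplexes of III and IV, had 59.6 and 95.1 there. The MFN2 cKO library of this pair held its highest value, as it did for Cox8a, Cox6b1 and Cox7b. The matrix-side Cox5a stayed between 43.2 and 67.7, Cox7a2 between 116 and 263 and Cox6a1 between 152 and 352, each with its highest value in P MFN2 WT at PD 52.

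The testis isoforms made up 48.1% to 59.9% of the summed FPKM of the 18 members of complex IV in each library. This sum leaves out the mitochondrially encoded subunits. Cox8c (ENSMUSG00000043319) had the highest mean of all members, 748. Its FPKM in P was 927 and 737 at PD 24 and 1120 and 811 at PD 52, and in L/Z 439 and 715 at the younger age and 576 and 659 at the older. All P libraries were above all L/Z libraries for Cox8c, and MFN2 WT was above MFN2 cKO in P and below it in L/Z. The somatic Cox8a had 39.3 and 51.5, and 57.4 and 34.6, in P, and 48.8 and 94.1, and 30.03 and 29.1, in L/Z. Both encode a small subunit of the membrane region.

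For Cox6b2, a subunit at the contact between the complex IV monomers, FPKM in P was 239 and 177 at PD 24 and 262 and 198 at PD 52, and in L/Z 166 and 180, and 242 and 243. This was the narrowest range of the isoforms, and the stages overlapped. Its counterpart Cox6b1 had 22.3 and 30.1, and 46.1 and 19.7, in P, and 31.7 and 57.7, and 20.9 and 17.7, in L/Z. Cox7b2 had 193 and 186, and 435 and 212, in P, and 131 and 199, and 148 and 194, in L/Z, and P MFN2 WT at PD 52 was thus 2.05 times its MFN2 cKO library. Cox7b had 3.14 and 4.21, and 6.01 and 3.86, in P, and 4.71 and 11.2, and 2.37 and 3.44, in L/Z. The reads on Cox7b numbered 43 to 241 per library, so its ratios are the least precise of the pairs.

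In every library the testis isoform was above its somatic counterpart in all 3 pairs. The FPKM ratio ran from 7.60 to 23.6 for Cox8c to Cox8a, from 3.11 to 13.8 for Cox6b2 to Cox6b1 and from 17.8 to 72.4 for Cox7b2 to Cox7b. All 3 ratios were lowest in L/Z MFN2 cKO at PD 24 and next lowest in L/Z MFN2 WT at PD 24, where they were 8.997, 5.24 and 27.7. In L/Z at PD 52 the ratios were 19.2 and 22.6, 11.6 and 13.8, and 62.6 and 56.5 in MFN2 WT and MFN2 cKO. The ratios of L/Z thus lay below those of P at PD 24, and at PD 52 they overlapped with P or lay above it. MFN2 cKO was below MFN2 WT for all 3 ratios at PD 24 at both stages. At PD 52 this was so for Cox7b2 to Cox7b at both stages, while the other ratios were higher in MFN2 cKO. At PD 24 the spermatid genes were lower in MFN2 cKO too, with sums of 1173 and 97.3 in P and 2329 and 355 in L/Z. The Leydig genes were higher there, with 18.2 and 110 in P and 31.4 and 161 in L/Z, as were the macrophage genes, with 15.6 and 34.2 in P and 29.0 and 89.2 in L/Z. At PD 52 the spermatid genes summed to 4586 and 2030 in P and to 10200 and 18949 in L/Z. The Leydig genes there had 239 and 585, and 26.3 and 88.7, and the macrophage genes 4.34 and 18.4, and 15.1 and 126. The part of these cells in the ratios was not tested.

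**Figure D3:**
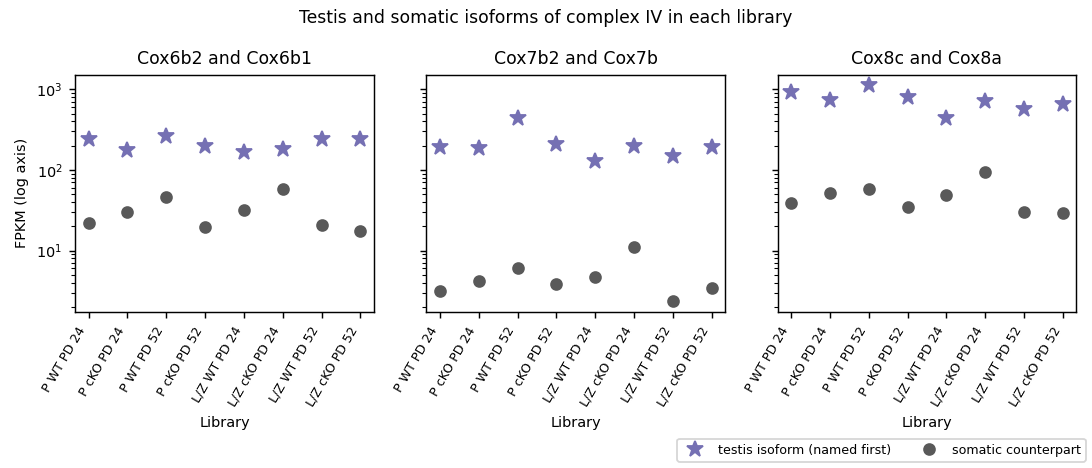
FPKM (log axis) of each testis isoform of complex IV (stars) and its somatic counterpart (circles) in the 8 libraries along the horizontal axis, without error bars since each library is alone in its group. The star lies above the circle in all libraries, and the gap is smallest in L/Z cKO PD 24, where the ratios are 3.11, 17.8 and 7.60 from left to right.

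Isoforms of other tissues were low. Cox7a1, of heart and muscle, had 4.35 and 7.13, and 3.84 and 2.19, in P, and 2.57 and 7.17, and 0.87 and 0.26, in L/Z, on 2 to 71 reads. Between genotypes its largest difference was in L/Z at PD 24, with 26 and 68 reads and a log2 change of 1.19 (0.66 to 1.71). Cox4i2, the lung isoform, had 0.63 to 1.38 in P and 1.22 to 3.73 in L/Z. Cox6a2 (0.29 to 1.18) and Cox8b (0 to 0.93), both of muscle, were lower still.

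In complex V, Atp5b (ENSMUSG00000025393, chr10:128083273-128090391, forward strand), the catalytic beta subunit of the head, had the highest mean FPKM, 158. It had the narrowest range of the 42 members tested, with 167 and 148, and 189 and 147, in P, and 144 and 166, and 153 and 148, in L/Z. Atp5a1 (ENSMUSG00000025428, chr18:77773729-77782869, forward strand), the alpha subunit, had 124 and 122, and 138 and 91.4, in P, and 90.3 and 117, and 80.4 and 68.8, in L/Z. The P libraries of Atp5a1 were above all L/Z libraries, other than P MFN2 cKO at PD 52, which lay among them. Its log2 change between genotypes was -0.03 (-0.08 to 0.02) and -0.59 (-0.64 to -0.53) in P at PD 24 and PD 52, and 0.37 (0.32 to 0.42) and -0.22 (-0.29 to -0.15) in L/Z. Atp5b changed by -0.18, -0.36, 0.20 and -0.04 in the same order.

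In P at PD 52 all 17 genes of complex V above the filter were lower in MFN2 cKO (median -0.81), and 5 by at least 2-fold, of which Atp5h and Atp5g1 fell short of 2-fold with the further scaling. The largest difference among all members was in Atp5k, the e subunit, with FPKM of 124 on 1226 reads and 33.1 on 296 reads and a log2 change of -1.87 (-2.06 to -1.69). Atp5e, the epsilon subunit of the stalk, followed with 114 and 36.6 (-1.61, interval -1.71 to -1.51). Atp5mpl, a small proteolipid, had 73.4 and 27.6 (-1.38), Atp5h, the d subunit of the stator, had 102 and 46.9 (-1.10) and Atp5g1, a gene of the c ring, had 9.87 and 4.39 (-1.01). Atp5mpl had 20.2 to 21.4 in P and 42.3 to 47.5 in L/Z at PD 24, and 27.6 to 73.4 and 58.5 to 76.9 at PD 52. It was not called by age (0.83, SE 0.24, limma adjusted p = 0.0653) or by stage (-0.82, SE 0.29, adjusted p = 0.0713). The c ring genes Atp5g1, Atp5g2 and Atp5g3 encode the same mature protein, and their mean FPKM was 6.78, 15.4 and 23.2. Atp5g3 was the most variable of these, with 22.05 to 33.7 in P and 11.8 to 36.4 in L/Z, where L/Z MFN2 cKO at PD 24 was highest. Of the rest of the head and central stalk, Atp5c1 (gamma) ran from 44.7 to 79.1 and Atp5d (delta) from 50.51 to 91.3. In the stator, Atp5o, the protein that confers oligomycin sensitivity, ran from 19.4 to 46.05, Atp5f1 (b) from 21.9 to 45.1 and Atp5j (F6) from 29.5 to 44.9. All 5 were highest in P MFN2 WT at PD 52. Atp5j2, the f subunit of the membrane part, ran from 15.7 to 39.8, and Atp5s, a factor linked to the complex, from 15.3 to 26.4.

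Some genes of complex V share sequence with annotated processed copies, and how the authors' counting split such reads is not given in the sources used here. Atp5l, the g subunit, had 4.52 to 8.43 and 436 to 919 reads, while its pseudogene Gm10221 had an FPKM of 24.5 to 84.9 on 153 to 421 reads, over 309 bases against 6443 for Atp5l. Gm10039, a copy of Atp5g1, had 23.9 to 42.6, and Gm10250, a copy of Atp5h, had 17.7 to 47.3. All 3 copies were highest in P MFN2 WT at PD 52, as were the genes they copy. In Atp5g2, 33.1% of the windows of 150 bases occur in another gene, and in Atp5o 17.2% do. Values of these members are uncertain, by an amount that the shares of windows do not give. In all, 17 of the 44 members overlap another annotated gene, 13 of them on the opposite strand.

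The common effects of genotype, stage and age were each fitted with limma over 4 pairs of libraries, on log2(FPKM + 1), with the pair as a block and Benjamini-Hochberg adjustment over 21175 genes. For genotype none of the 42 members was called (0.137% of all genes were, 0.132% higher), none had an unadjusted p under 0.05 (6.93% of all genes), and the median was -0.11. For age none was called (17.3% of all genes), and 4 had an unadjusted p under 0.05 (37.6% of all genes). The nearest was Uqcrq, whose age difference (PD 52 minus PD 24) was 0.53 (SE 0.14, limma adjusted p = 0.0535). The genotype by age interaction called none of the members (0.00472% of all genes), with 2 at an unadjusted p under 0.05 (9.11%), and the stage by age interaction called none (0% of all genes), with 1 such member (5.02%). In fits by voom on the recovered reads none of the members was called for genotype, age or the interactions.

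The stage comparison (P minus L/Z) called 3 of the 42 members, 2 higher and 1 lower, where 28.4% of all genes were called (12.4% higher and 16% lower). Uqcrc2 was higher in P by 0.79 (SE 0.16, limma adjusted p = 0.0126), and higher in 4 of 4 pairs. Its call was lost without the MFN2 WT pair at PD 24 (adjusted p = 0.0870) or the MFN2 cKO pair at PD 52 (0.0696), fits in which none of all genes was called. The call of Uqcrc2 was also lost with no block for the pair (adjusted p = 0.0554). The overlapping Pdzd9 differed by -0.23 (SE 0.15, adjusted p = 0.292). Cox7a1 was higher in P by 0.82 (SE 0.25, adjusted p = 0.0455) and Cox4i2 lower by 0.74 (a difference of -0.74, SE 0.21, adjusted p = 0.0396). Both rest on few reads and were lost in voom on the reads (adjusted p = 0.186 and 0.0541). Cox7a1 was also lost without any pair except that of MFN2 cKO at PD 24 (0.157 to 0.217), and Cox4i2 without any of the 4 pairs (0.0554 to 0.176). Cox8c, the most abundant member, differed by 0.59 (SE 0.22, adjusted p = 0.0837) and Atp5a1 by 0.42 (SE 0.17, adjusted p = 0.106), both short of the threshold. Other abundant members were further from it. Cox4i1 differed by 0.60 (adjusted p = 0.134), Cox7b2 by 0.53 (0.185), Cox6b2 by 0.08 (0.760) and Atp5b by 0.08 (0.726).

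The P MFN2 WT library at PD 52 belongs to the P genotype pair, to the MFN2 WT stage pair and to the P MFN2 WT age pair, which therefore share it. The medians of the members in these pairs were -0.86 for genotype, 0.96 for stage (P minus L/Z) and 0.76 for age (PD 52 minus PD 24), against -0.05, -0.06 and -0.02 for all genes. The other pairs of stage had medians of 0.21 (MFN2 WT at PD 24), -0.39 (MFN2 cKO at PD 24) and -0.02 (MFN2 cKO at PD 52). In the other pairs of age they were -0.02 (P MFN2 cKO), 0.08 (L/Z MFN2 WT) and -0.41 (L/Z MFN2 cKO). Without the P pair at PD 52, the median genotype difference of the members turned from -0.11 to 0.15, and 35 instead of 9 of the 42 were above 0. Leaving out that library alone, a choice made after the data were seen, the median genotype by age interaction went from -0.60 to -0.12 and that of stage by age from 0.54 to -0.066. The genotype by stage median went from -0.80 to -0.39, and 37 instead of 40 members were below 0.

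The difference in P at PD 52 also varied with gene length, which was examined over genes with a mean FPKM above 10. Other protein-coding genes of up to 800 bases had a median change of -0.84 (192 genes), and this moved by steps to -0.46 between 1200 and 2000 bases (766 genes) and to 0.19 above 5000 bases (1408 genes). The members in the same steps had medians of -1.11 (8 genes) up to 800 bases, -1.11 (12 genes) between 1200 and 2000 bases and -0.59 (7 genes) between 3000 and 5000 bases, where other genes had -0.07. In each of the 5 steps that held members, their median was below that of the other genes. In L/Z at PD 24 other genes ran from 0.03 up to 800 bases over 0.31 between 800 and 1200 bases to -0.10 above 5000 bases. The members ran from 0.65 up to 800 bases over 0.32 between 2000 and 3000 bases to 0.48 between 3000 and 5000 bases. The part of length in these differences was not tested.

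**Figure D4:**
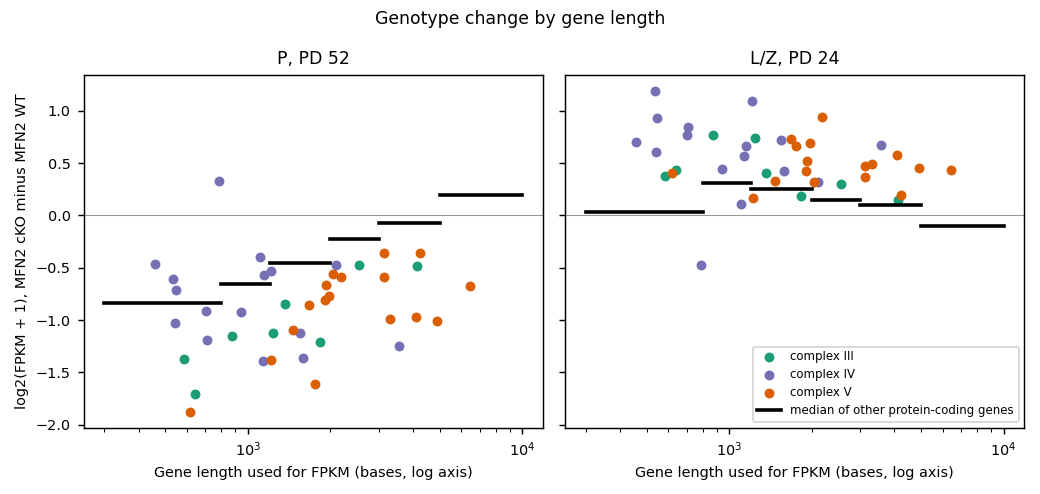
Change between MFN2 WT and MFN2 cKO on the log2(FPKM + 1) scale (vertical axis) against gene length in bases (log axis), in P at PD 52 and L/Z at PD 24, with 1 point per member coloured by complex. Black bars give the median of other protein-coding genes with a mean FPKM above 10 in each step of length, which runs from -0.84 to 0.19 in P at PD 52, where the members' medians lie between -1.11 and -0.52.

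Related genes were compared in the same fits. The 36 nuclear subunits of complex I above the filter had medians near those of the members, with -0.97 in P at PD 52 and 0.45 in L/Z at PD 24. The cytosolic ribosomal proteins, a list added after the data were seen and unrelated to respiration, had -1.31 (76 genes) and 0.73 (77 genes) there. For genotype, none of the genes in any of the related lists passed the test. Cyct, the testis cytochrome c that carries electrons between complexes III and IV, was higher in P than in L/Z by 0.96 (SE 0.20, limma adjusted p = 0.0140), with an FPKM of 101 to 168 in P and 45.2 to 69.5 in L/Z. It was the only called gene among 5 further genes of the complexes (12.4% of all genes were higher in P). Its call was lost without the MFN2 WT pair at PD 24 (adjusted p = 0.1004), without the MFN2 cKO pair at PD 52 (0.0699) and with no FPKM filter (0.0528).

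Of the 6 mitochondrially encoded subunits, 4 were called lower at PD 52 (5.41% of all genes were). For mt-Cytb, the core of complex III, FPKM was 1739 and 1823, and 1100 and 952, in P, and 1404 and 1685, and 741 and 590, in L/Z (at PD 24, then at PD 52). Both stages and genotypes were lower at PD 52 without overlap, with a log2 difference of -1.01 (SE 0.15, limma adjusted p = 0.0150). The complex IV core subunits mt-Co1 and mt-Co2 differed by -0.65 and -1.11 (adjusted p = 0.0349 and 0.0472) and mt-Atp6 of complex V by -1.11 (adjusted p = 0.0369). All 4 calls were lost with no block for the pair (adjusted p = 0.196 for mt-Co1 and 0.115 to 0.126 for the others) and with no FPKM filter (0.0719 to 0.211). They were also lost without the P MFN2 cKO, L/Z MFN2 WT or L/Z MFN2 cKO pair (0.0728 to 0.204), fits in which none of all genes was called. The call of mt-Co2 was also lost without the P MFN2 WT pair (0.0845) and with a pseudocount of 0.1 (0.0518). By stage, mt-Co1 alone of the 6 was called, higher in P by 0.75 (SE 0.20, limma adjusted p = 0.0297), as 12.4% of all genes were. That call was lost with a pseudocount of 0.1 (0.0709), no FPKM filter (0.420), no block (0.158) and without any of the 4 pairs (0.110 to 0.275). Mitochondrial genes can share reads with near-identical nuclear copies, so these values are uncertain. The nuclear members went both ways by age, with 27 of 42 above 0 and a median of 0.08 (-0.06 with voom on the reads). Without the P MFN2 WT pair this median was -0.092, and in the L/Z MFN2 cKO pair 33 of 41 members were lower at PD 52, 7 of them by at least 2-fold. Of all 18480 genes in that pair, 9153 were lower and 2336 at least 2-fold lower. A difference between the nuclear and mitochondrial genes was not tested.

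By stage, 12.4% of all genes were called higher in P and 16% lower. Of the assembly factors, 0 of 6 for complex III, 2 of 20 for complex IV (Coa5 and Cox10) and 0 of 3 for complex V were called higher in P than in L/Z, and 1 (Lyrm7), 0 and 0 were called lower. By age, 2 of the 6 factors of complex III (Lyrm7 and Uqcc1) were higher at PD 52 (11.9% of all genes), and 1 of the 20 of complex IV (Cox15) was lower (5.41% of all genes). Among 8 regulators of the subunit genes above the filter, 1 was higher (Yy1) and 1 lower (Tfam) in P, and 1 was lower at PD 52 (Pprc1).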

How the data were processed

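RNA of spermatocytes was sequenced as paired reads of 150 bases from NEBNext Ultra libraries, and the authors deposited FPKM values per gene, made with Novomagic and already scaled between libraries. The study states DESeq2 for its own comparisons, which were not used here. The submitters' processing notes name CASAVA 1.4, Bowtie 0.12.2 and the builds mm8 and mm9, whereas 98.3% of the genes in the table have GRCm38 coordinates identical to GENCODE mouse release 21, so GRCm38 is used here. The product of FPKM and gene length was a whole multiple of a fixed amount in each library (100% of values within 0.01 reads), which gave the reads per gene.

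Levels were compared as log2(FPKM + 1), a scale that understates the change of low genes, for genes whose FPKM exceeded 1 in any library of the comparison. The effects of genotype, stage and age and their interactions were fitted with limma 3.58.1 in R 4.3.3, and calls were made at an adjusted p under 0.05. Since each group had 1 library, the pairs stand in for replicates and p-values measure the spread between these libraries. The members and lists were chosen with earlier results of these data known. Members named singly were the testis isoforms with their counterparts, Atp5a1, Uqcrc2, the member of highest mean in each complex, those changed 2-fold between genotypes and those called. Others that are named, with related genes and copies, were chosen after their values were seen. The fits were repeated with voom on the reads, without the block, with additive terms, without each pair in turn, over protein-coding genes, with a pseudocount of 0.1, with all genes above 0 and after scaling the libraries once more by median ratios. Simulated data with known changes were used to test the limma fits, the read recovery and the intervals. A comparison of promoter motifs was void, since RefSeq promoters matched 33 of 43 member names (76.7%, where 80% are needed). All value columns of the table were mapped to samples.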

Additional observations from a re-analysis of the deposited data

How the results depend on the processing

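The calls for stage depended most on the processing. Against 2 members higher and 1 lower in P, there was 1 higher with a pseudocount of 0.1, 1 higher and 0 lower with no FPKM filter, 1 higher and 2 lower with a further median-of-ratios scaling, 2 lower with protein-coding genes only, and 0 lower with voom. With no block for the pair 0 were called in either direction, and with additive terms 1 was higher and 0 lower. Uqcrc2 was the member, or one of the members, higher in each of these fits other than the one with no block, and the lower ones were Cox4i2 and Atp5mpl. When each pair was left out in turn, 0 to 2 members were higher and 0 to 1 lower, and the median stage difference of the members lay between -0.092 (without the MFN2 WT pair at PD 52) and 0.36. For age 1 member (Uqcrq) was called higher with protein-coding genes only, 1 (Cox7a1) lower with additive terms, and 0 to 1 (Atp5mpl) higher with a pair left out. The median genotype difference lay between -0.30 and 0.15 with a pair left out, and without the P MFN2 WT library at PD 52 the stage by age median was -0.066. In L/Z at PD 52, 1 member (Cox6a2) was at least 2-fold lower with a pseudocount of 0.1, and the highest log2 ratio of Cox7b2 to Cox7b moved from 5.96 to 6.15. Voom moved the median age difference of all genes to -0.18 and of the members to -0.06, and the stage by age medians to 0.32 and 0.86. The other 182 of 207 alternative values of the main comparisons moved by less than their error or, for counts, by less than 1.5 times, and no called difference changed direction. The cause of these shifts was not tested. No paired analysis by replicate number was possible because each group had 1 library; the pair block above joins libraries of the same stage, age or genotype. The search of promoter motifs on the given strand was not run, since the comparison was void. The depth limits Cox7a1, Cox4i2, Cox6a2 and Cox7b, whose reads are few.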
